A study of Coptotermes formosanus x Coptotermes gestroi and Coptotermes formosanus and Coptotermes gestroi with 67 samples.

Results

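Before a molt, 31 of 15950 genes stood higher in one and lower in the other of the heads and bodies of termite workers, while 882 stood higher in both and 2135 lower in both. The 31 genes were chosen by rule: the ratio of pre-molt to inter-molt levels, called R here, was at least 1.5 in one tissue and at most 1/1.5 in the other, with the same sign of change within each tissue in all 4 crosses. R is the ratio of geometric means over the crosses of CPM plus 1, where CPM (counts-per-million) is a gene's count scaled by the total of its profile. Of the 31 genes, 11 were higher in the head and lower in the body before the molt (head-up genes) and 20 were lower in the head and higher in the body (body-up genes).

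Workers came from 4 crosses: the termite species Coptotermes formosanus, the species Coptotermes gestroi, and 2 hybrids of them labelled Hybrid F and Hybrid G. Each was sampled between molts (inter-molt), before a molt (pre-molt) and after it (post-molt), as heads and as bodies (thorax plus abdomen, gut taken out). There were 67 labelled samples in 24 groups, but all columns of a group held the same values, so each group gave 1 profile and no spread between workers could be measured. Errors of levels in CPM below are spreads (SD) over the 4 crosses. Those of log2 differences are standard errors (SE) of fits, with crosses as blocks after the molt and stages as blocks between species. Between molts, the body of each pure species was 1 sample, and these profiles had the smallest totals, 10080438 counts in C. formosanus and 9861833 in C. gestroi, against up to 38338701 counts in the other profiles. The pre-molt body of C. gestroi was 2 samples and had the next smallest total, 19497806 counts. The limit that a count of 0 allows, 3 counts, was 0.0782 to 0.304 CPM in these profiles and covers counting error only. The values are estimated counts, in part not whole numbers, and the level of any gene with a near-identical copy is uncertain. The deposited table gives no gene names. Genes are therefore given by ID and length with no function, no gene list could be matched, and the tissues were not checked against marker genes.

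An insect molt is driven by a pulse of ecdysteroid hormone. The epidermis then detaches from the old cuticle and secretes a new one, which hardens after the old one is shed. Termite workers stop feeding and empty their gut before the molt, and they are fed by nestmates afterwards. The head holds the brain, the sense organs and the mandibles with their large muscles, whereas most of the fat body, the main organ of storage and metabolism, lies in the body. A bulk profile cannot tell fewer cells of a type from less RNA per cell.

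In the head, 1339 genes (8.39%) met the rule for an increase and 4081 (25.6%) that for a decrease, and in the body 1118 (7.01%) and 3828 (24%). These counts use the contrast of the rule and are a description, with no test. Scaling by column totals put the median of all genes at a log2 R of -0.22 in the head and -0.29 in the body, while TMM scaling put it at 0.00 in both. Over the 11826 genes with a mean of at least 1 CPM, the medians were -0.41 and -0.45 by column totals and -0.06 and 0.00 by TMM. Relative to the median gene, increases are therefore larger, and decreases smaller, than R gives. The median log2 R of the head-up genes was 0.91 in the head and -1.36 in the body by column totals and 1.13 and -0.86 by TMM. For the body-up genes these were -1.29 and 1.10 by column totals and -0.88 and 1.53 by TMM. By TMM and by median-of-ratios (RLE) scaling, the mean change of all 31 genes kept opposite signs in head and body. These scalings moved the mean changes by less than the fold of the rule, so this had to hold and nothing is read from it. With TMM the signs held in every cross for 7 of 11 head-up and 15 of 20 body-up genes (7 and 14 with RLE), and the full rule was met by 7 and 12 of them.

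**Figure D1:**
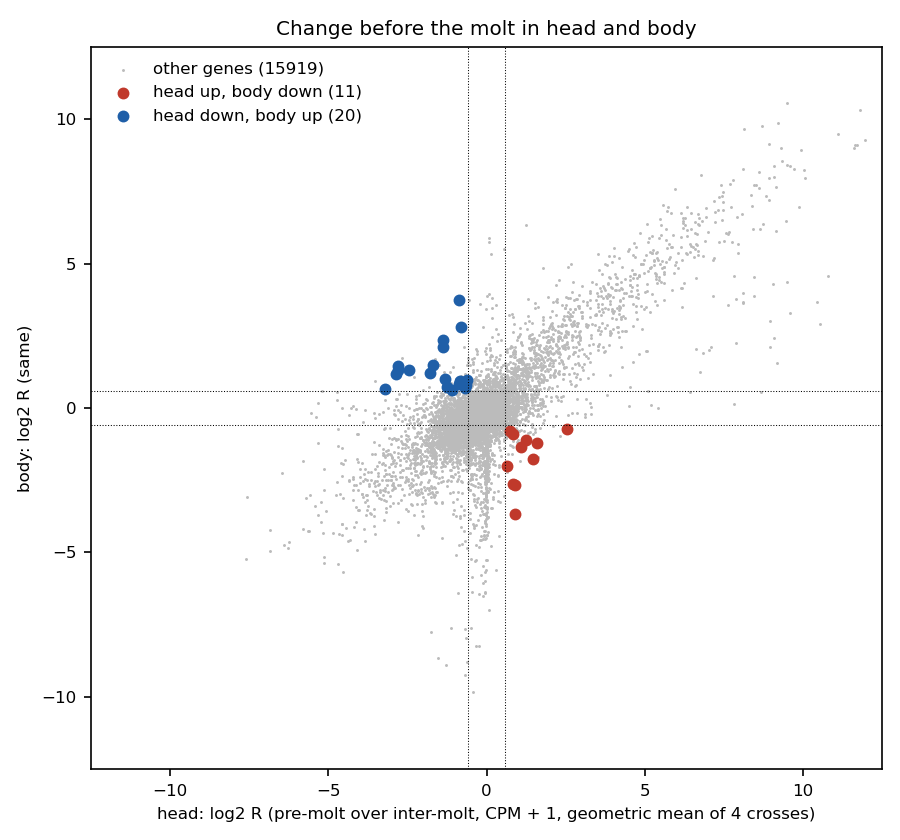
Change before the molt of every gene in the head (x axis, log2 R) and in the body (y axis, log2 R), with dotted lines at a 1.5-fold change. The 11 head-up genes (red) lie at the lower right and the 20 body-up genes (blue) at the upper left of the 15919 other genes (grey), most of which follow the diagonal.

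Between molts, most head-up genes stood higher in the body. In 9 of the 11, the inter-molt body stood above the inter-molt head in every cross, against 16.1% of genes with a mean of at least 1 CPM, and in no head-up gene was the head higher in all 4. The rule asks for a decrease from the inter-molt body and so favours this. Where 4 values are given, they stand for C. formosanus, C. gestroi and the hybrids F and G, in this order.

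Cfor_04455 (4.01 kb) had the largest opposite change of the head-up genes, measured by the smaller of its 2 changes. Inter-molt heads held 35.8, 41.8, 41.6 and 62.3 CPM and pre-molt heads 103, 242, 90.9 and 106 CPM. Inter-molt bodies held 339, 2021, 688 and 115 CPM and pre-molt bodies 206, 237, 95.3 and 89.9 CPM. The head ranges did not overlap, whereas the body ranges did, and the body decrease was largest in C. gestroi and Hybrid F and smallest in Hybrid G. R was 2.77 in the head, and the body was 3.36-fold lower. After the molt the gene stood at 183 ± 18.7 CPM in the head and 388 ± 163 CPM in the body (SD, n = 4 crosses).

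Cfor_04033 (9.43 kb) and Cfor_04613 (6 kb) were the head-up genes that met the rule in all 13 other settings tried. Cfor_04033 stood at 29.6, 47.1, 49.9 and 33.1 CPM in inter-molt heads and at 106, 104, 91.4 and 79.7 CPM in pre-molt heads. In the body it went from 114, 58.6, 126 and 102 CPM to 35, 34.8, 54.1 and 55.8 CPM. The ranges were apart in both tissues, and the order of the tissues turned round in every cross, from body above head to head above body. Cfor_04613 began at similar levels in head and body, 138 ± 28.0 and 133 ± 50.9 CPM. Before the molt it stood at 234, 214, 368 and 382 CPM in the heads and 63.8, 52.0, 41.6 and 38.0 CPM in the bodies, so the heads were higher in all 4 crosses.

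Cfor_10669 had the largest head ratio of these genes, 5.87, with inter-molt heads at 2.08 to 2.79 CPM and pre-molt heads at 10.7 to 28.3 CPM. Its bodies went from 25.1, 45.4, 30.3 and 7.47 CPM to 19.6, 20.4, 10.9 and 7.35 CPM, with the smallest change in Hybrid G. With TMM scaling it did not keep 1 sign in every body, nor did Cfor_04455, BGI_novel_G001449 and Cfor_02801. BGI_novel_G001449 (6.89 kb) went from 17.5 ± 10.4 to 52.3 ± 27.3 CPM in the head and from 220.2 ± 72.5 to 101 ± 67.1 CPM in the body. C. formosanus bodies moved least in this gene, from 231 to 201 CPM. Cfor_02801 (2.63 kb) went from 47.0 ± 10.4 to 79.4 ± 21.0 CPM in the head and from 34.7 ± 9.32 to 19.2 ± 4.74 CPM in the body.

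By R, Cfor_07732, Cfor_09155 and BGI_novel_G003123 differed between the stages mainly in the body. Their head levels were low, so their head ratios depend on the added 1 CPM, and none of them met the rule with 5 CPM added. Cfor_07732 (0.699 kb) stood at 102, 168, 52.1 and 5.43 CPM in inter-molt bodies and at 3.45, 5.20, 2.39 and 1.37 CPM in pre-molt bodies, a 12.8-fold lower level by R. In the heads it went from 0.558 ± 0.267 to 2.05 ± 1.27 CPM, and in C. formosanus it hardly moved there, from 0.864 to 0.948 CPM. Cfor_09155 was counted 0 to 19 times in inter-molt heads and 14 to 111 times in pre-molt heads, against 271 to 1672 times in inter-molt bodies. Its mean went from 0.376 to 1.70 CPM in the head and from 51.4 to 10.2 CPM in the body. Without the added 1 CPM its head change was thus not small beside that in the body. BGI_novel_G003123 went from 1.02 ± 0.453 to 2.96 ± 2.22 CPM in the head and from 46.3 ± 36.8 to 5.32 ± 2.74 CPM in the body. In each of these 3 genes, and in every other head-up gene but Cfor_04033, Hybrid G had the lowest inter-molt body level. How many of all genes had this order was not counted.

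The other head-up genes had low or uneven changes. BGI_novel_G001290 went from 1.24 ± 0.955 to 2.78 ± 0.817 CPM in the head and from 2.53 ± 0.967 to 0.907 ± 0.543 CPM in the body. BGI_novel_G001769 owed most of its head ratio of 1.57 to Hybrid G, which went from 5.77 to 28.4 CPM, while C. formosanus went from 11.7 to 12.4 CPM.

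**Figure D2:**
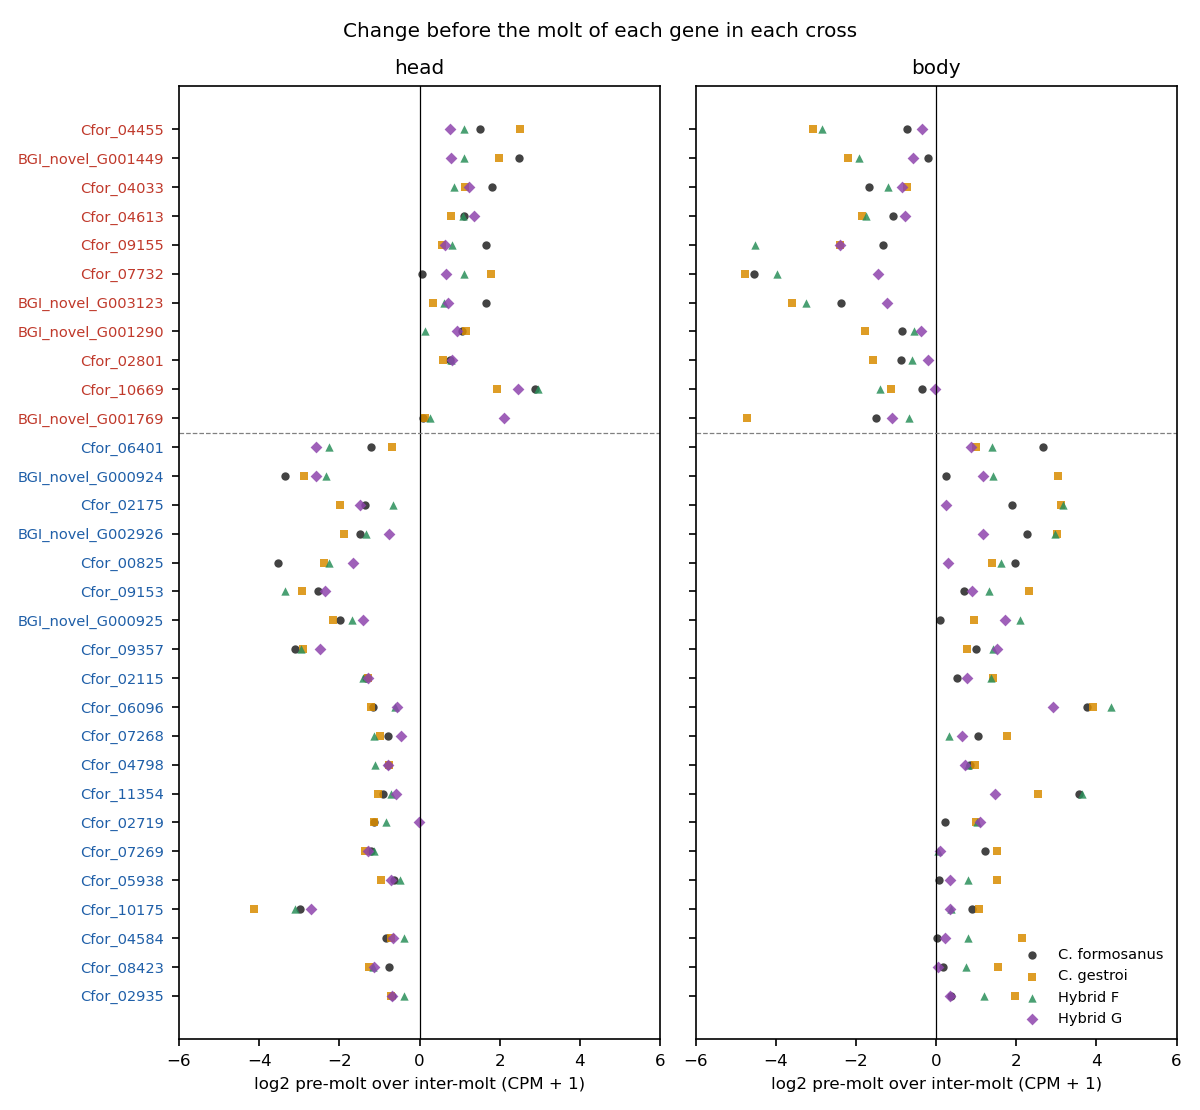
Log2 change from inter-molt to pre-molt (CPM + 1) of each of the 31 genes in the head (left) and in the body (right), with 1 symbol per cross; head-up genes are in red above the dashed line and body-up genes in blue below it. Every symbol of a gene lies on 1 side of 0 within a tissue, as the rule asks; for Cfor_02115 the head symbols lie between -1.42 and -1.28.

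Between molts, most body-up genes stood higher in the head, and several were abundant. In 18 of the 20, the inter-molt head stood above the inter-molt body in every cross, against 38.1% of genes with a mean of at least 1 CPM, and the decrease from the inter-molt head that the rule asks for favours this. Their median level per length, the mean over all 24 profiles, was 68.7 CPM per kb, against 8.16 CPM per kb in the head-up genes and 6.49 over the 11826 genes with a mean of at least 1 CPM. Cfor_02935 (1.19 kb), Cfor_05938 (1.69 kb) and Cfor_04584 (3.50 kb) were the most abundant per length, at 2384, 1985 and 1089 CPM per kb. Pre-molt and inter-molt head ranges were apart in 20 of 20 body-up genes, where 39.5% of genes with a mean of at least 1 CPM had head ranges apart. Body ranges were apart in 7 of 20, against 27.9% of those genes. The rule used this contrast, so nothing is read from these counts.

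BGI_novel_G000924 (0.550 kb) went from a head gene to a body gene. Inter-molt heads held 79.8, 96.8, 54.9 and 47.3 CPM and pre-molt heads 6.87, 12.4, 10.1 and 7.01 CPM. Inter-molt bodies held 16.2, 6.29, 19.3 and 30.5 CPM and pre-molt bodies 19.3, 58.6, 53.3 and 69.3 CPM. The head was 6.92-fold lower and the body 2.76-fold higher by R, with the smallest body change in C. formosanus. BGI_novel_G000925 (3.31 kb), the next ID in the table, went from 13 ± 7.54 to 3.04 ± 1.93 CPM in the head and from 4.39 ± 3.13 to 12.7 ± 9.46 CPM in the body. In both genes the order of head and body turned round in all 4 crosses.

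BGI_novel_G002926 (1.73 kb) showed the same turn at a higher level. Inter-molt heads held 1675, 1602, 1238 and 971 CPM and pre-molt heads 599, 433, 492 and 572 CPM. Inter-molt bodies held 245, 218, 183 and 673 CPM and pre-molt bodies 1189.6, 1783, 1430.1 and 1513 CPM. The ranges were apart in both tissues. Hybrid G had the highest inter-molt body and the lowest inter-molt head. Cfor_02115 (7.75 kb) went from 2825, 1468, 2545 and 2062 CPM to 1121, 600.3, 951 and 849.9 CPM in the heads. In the bodies it went from 1263, 267, 746 and 1039 CPM to 1823, 712, 1928 and 1778 CPM. Its head change was the most even of these genes, with log2 values of -1.42 to -1.28.

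Cfor_07268 (5.51 kb) and Cfor_07269 (0.804 kb), also consecutive IDs, had the same pair of directions. Their estimated counts were not whole numbers, such as 8802.38 and 1693.62 in the C. formosanus inter-molt head, which add to a whole number. Reads that match both IDs may thus have been divided between them, so the pair is not read as 2 separate cases. Such a division was not tested. Counts that were not whole also occurred in other genes described here. Among them were BGI_novel_G001449, BGI_novel_G003123, BGI_novel_G001290, BGI_novel_G001769, BGI_novel_G000925, Cfor_07732, Cfor_09153 and Cfor_04798. Whether they share reads with other IDs was not tested. Cfor_07268 went from 272 ± 32.1 to 153 ± 36.3 CPM in the head and from 177 ± 70.9 to 324 ± 65.4 CPM in the body. Cfor_07269 went from 87.1 ± 23.5 to 36.1 ± 9.28 CPM and from 82.4 ± 41.0 to 124 ± 19.6 CPM, but its hybrid bodies hardly moved, with log2 changes of 0.05 in Hybrid F and 0.09 in Hybrid G. Cfor_02719 went from 241 ± 37.4 to 140.4 ± 31.1 CPM in the head and from 102 ± 23.4 to 182 ± 33.7 CPM in the body. In its head Hybrid G stayed at 187 and 185 CPM. The order of head and body turned round in all 4 crosses for 6 body-up genes and 3 head-up genes by column totals. By TMM these were 6 and 2. Over the genes with a mean of at least 1 CPM, 2.55% turned round in this way, or 3.25% by TMM, and the rule favours such genes.

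Cfor_00825, Cfor_09357, Cfor_06096 and Cfor_06401 were head genes between molts whose head and body levels drew close before the molt. Cfor_00825 (0.872 kb) stood at 162, 128, 93.9 and 96.0 CPM in inter-molt heads and at 13.2, 23.9, 18.9 and 29.6 CPM in pre-molt heads. Its bodies went from 1.59, 5.07, 2.00 and 8.32 CPM to 9.18, 15, 8.15 and 10.5 CPM, and the head stayed above the body in every cross. Cfor_09357 (2.18 kb) was 7.28-fold lower in the head, from 203 ± 30.6 to 27.2 ± 4.79 CPM, and 2.26-fold higher in the body, from 9.31 ± 5.77 to 21.7 ± 9.23 CPM. Cfor_06096 (2.48 kb) had the largest body ratio, 13.4, from 1.32 to 5.03 CPM between molts to 34.1 to 50.1 CPM before the molt, beside a 1.85-fold decrease in the head. Cfor_06401 (5.05 kb) went from 47.6 ± 11.5 to 14.7 ± 5.76 CPM in the head and from 3.28 ± 1.42 to 10.8 ± 3.33 CPM in the body.

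Cfor_02175 (1.52 kb) went from 1285 ± 67.6 to 518 ± 180.2 CPM in the head. Its bodies went from 123, 65.8, 91.9 and 480.3 CPM to 463, 582, 837 and 567 CPM, and Hybrid G alone began near its pre-molt level. Cfor_11354 (1.78 kb) was the body-up gene with more body than head already between molts, in 3 of 4 crosses. It went from 3.24 ± 1.15 to 1.36 ± 0.369 CPM in the head and from 8.91 ± 7.34 to 56.6 ± 17.2 CPM in the body.

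Cfor_02935, Cfor_05938, Cfor_04584 and Cfor_08423 had changes of 1.53- to 2.12-fold in the head and 1.54- to 1.96-fold in the body. Their body change was largest in C. gestroi, with log2 values of 1.52 to 2.15 there and of 0.02 to 0.37 in C. formosanus. With TMM scaling the first 3 did not keep 1 sign in every head, nor did Cfor_06096 and Cfor_02719. Cfor_04798 was the evenest in the body, with log2 changes of 0.72 to 0.98. Cfor_10175 and Cfor_09153 were nearly absent from the body. Cfor_10175 stood at 377 to 644 CPM in inter-molt heads and at 34.7 to 73.8 CPM in pre-molt heads, and its bodies held 2 to 16 counts between molts and 30 to 83 counts before the molt. Cfor_09153 had 0 to 7.16 counts in the inter-molt bodies and 23.83 to 77.75 in the pre-molt bodies, so its body ratio of 2.48 depends on the added 1 CPM.

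**Figure D3:**
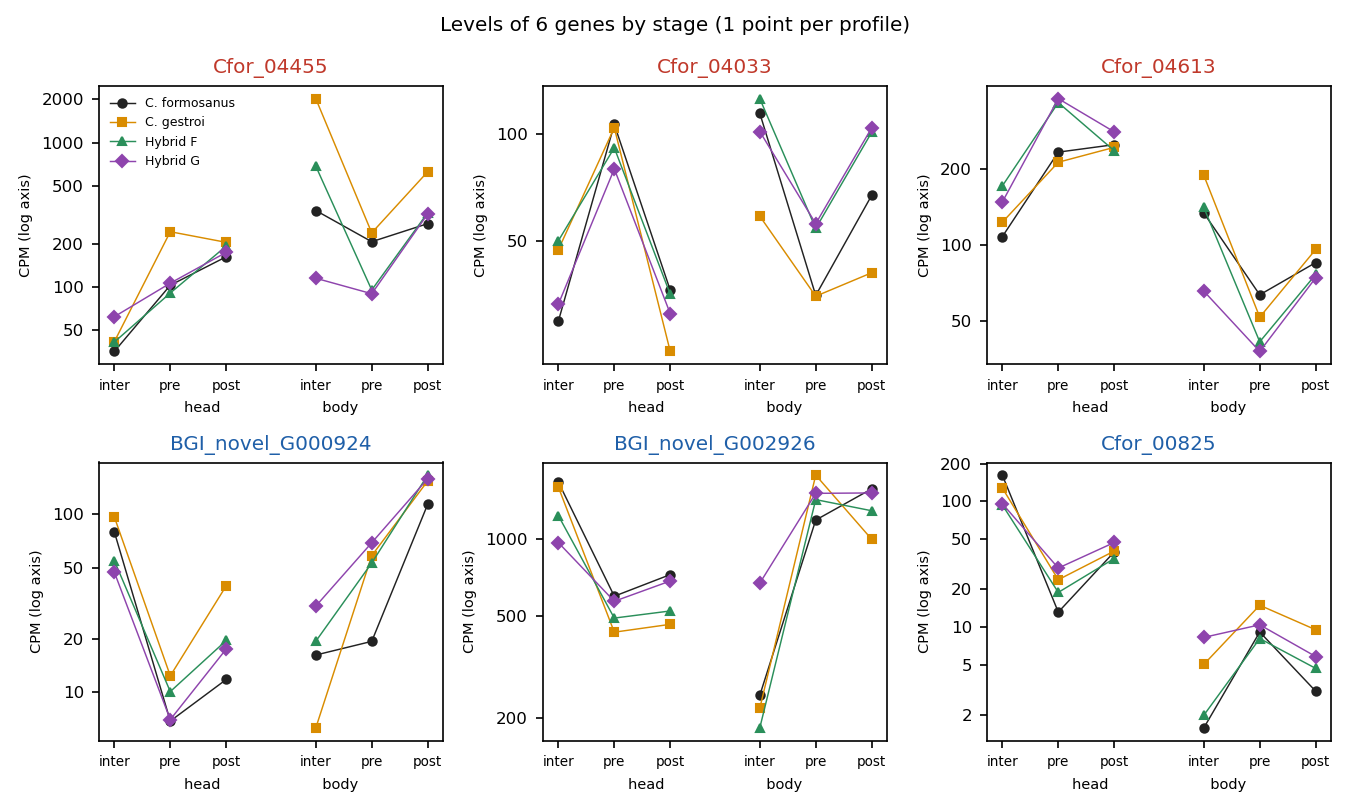
CPM on a log axis at inter-molt, pre-molt and post-molt in the head (left lines of each panel) and the body (right lines), for 3 head-up genes (red titles) and 3 body-up genes (blue titles), with 1 line per cross. Cfor_04033 returns after the molt to 31.7 CPM in the head on average, whereas BGI_novel_G000924 goes on to 148 CPM in the body.

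Just inside the threshold were BGI_novel_G001769 (R of 1.57 and 0.25 in head and body) and Cfor_10669 (5.87 and 0.607) among the head-up genes, and Cfor_12386 (1.57 and 0.670) and Cfor_08232 (1.49 and 0.564) were just outside. Among the body-up genes Cfor_02935 (0.652 and 1.96) and Cfor_08423 (0.472 and 1.54) were just inside, and Cfor_01301 (0.0270 and 1.49) and Cfor_12034 (0.0377 and 1.48) just outside. By sign alone, with no fold asked, 81 genes were up in every head and down in every body, and 65 the reverse. Median length was 4552 bases in the head-up and 1982.5 bases in the body-up genes, against 3197.5 over genes with a mean of at least 1 CPM. BGI_novel IDs made up 4 of 11 and 3 of 20 genes, against 25.2% of those genes.

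The rule was then asked of 3 crosses, and the cross left out was read, since its profiles had no part in that choice. Of the genes chosen as body-up on 3 crosses, 24 of 46 had the same pair of signs in C. formosanus, 16 of 17 in C. gestroi, 22 of 28 in Hybrid F and 24 of 48 in Hybrid G. Among the other genes with a mean of at least 1 CPM, 9.30%, 15.4%, 6.83% and 5.55% had that pair of signs in these crosses. Of the genes chosen as head-up, 13 of 19, 10 of 17, 11 of 29 and 15 of 61 had the same pair, where 14.5%, 15.2%, 4.98% and 6.23% of the other genes did. The 2 tissues are given apart for the head-up choices. For C. formosanus the body sign held in 15 of 19 genes (78.9%), near the 68.8% of the other genes. The head sign held there in 17 (89.5%), against 35.3%. For C. gestroi the body sign held in 12 of 17 genes (70.6%), near the 66.9% of the other genes. The head sign held there in 14 (82.4%), against 30.8%. For Hybrid G the head sign held in 90.2% of the 61 genes, but the body sign held in 20 of them (32.8%) although 76.9% of the other genes were lower in pre-molt Hybrid G bodies. For Hybrid F the body sign held in 27 of 29 genes (93.1%), against 79.7% of the other genes, and the head sign in 12 (41.4%), against 18.0%. These shares were not tested, and any 2 of the choices share 2 of their 3 crosses. The hybrids come from the 2 species, so the cross left out is not independent of the others.

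The size of the body change, which the rule used and which is given as a description, varied between crosses. Hybrid G had the smallest body change of the 4 crosses in 7 of 11 head-up genes, where it had it in 25.4% of all 3828 genes lower in the body by the rule. In the body-up genes this was 10 of 20, near the 53.1% of all 1118 genes higher in the body. C. gestroi, with a single inter-molt and 2 pre-molt body samples, had the largest body change in 8 of 11 and 12 of 20 genes. Its change was the largest in 33.3% of all genes lower and 33.4% of all genes higher in the body by the rule. Without Hybrid G the rule chose 61 head-up and 48 body-up genes, among them 10 of the 11 and all 20 of the genes described. Asked of the hybrids alone, which had 3 inter-molt body samples each, it chose 21 and 34 genes, among them 9 and 11 of those described. That last choice was made after the data were seen. The part of the single inter-molt body samples, and of the 2 pre-molt body samples of C. gestroi, in these differences was not tested.

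Post-molt profiles were not used by the rule. They allow a test of body against head after the molt, with the 4 crosses as blocks (edgeR quasi-likelihood test over 12731 genes, Benjamini-Hochberg adjusted p under 0.05). Over all genes 37.8% differed, 19.5% being higher in the body and 18.3% higher in the head. Of the head-up genes, 7 of 11 were higher in the body and 2 in the head, with a median log2 difference of body minus head of 1.10, against -0.02 over all genes tested. Of the body-up genes, 8 of 20 were higher in the body and 9 in the head, with a median of -0.27. Median absolute differences were 1.74 and 1.19 in the 2 groups and 0.37 over all genes tested. The genes were chosen for differences between tissues at other stages, so these shares are not a result about the groups.

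Most head-up genes had more in the body than in the head after the molt. By levels alone, with no test, 7 of 11 head-up genes stood higher in the body in all 4 crosses and 3 higher in the head, against 36.4% and 20.1% of genes with a mean of at least 1 CPM. Cfor_09155 stood at 38.7, 59.7, 34.5 and 34.4 CPM in post-molt bodies and at 0 to 0.336 CPM in post-molt heads (log2 difference 7.66 ± 0.50 SE, edgeR adjusted p = 0.00037). Cfor_10669, with 42.4 ± 12.9 and 4.05 ± 0.717 CPM, and BGI_novel_G003123, with 41.2 ± 14.2 and 1.26 ± 0.791 CPM, were likewise higher in the body (log2 3.22 and 4.89, edgeR adjusted p = 0.00080 and 0.0018). Cfor_07732 was higher in the body by 2.47 ± 0.21 (adjusted p = 0.00076 by edgeR), but at 4.75 ± 2.67 CPM, far under its inter-molt body level of 82.0 ± 69.7 CPM. Cfor_04033, Cfor_04455 and BGI_novel_G001449 were higher in the body by 1.10, 0.88 and 1.41 (log2, edgeR adjusted p = 0.0055, 0.013 and 0.0035), and the call of Cfor_04455 was lost in a fit to all 24 profiles.

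Cfor_02801 and Cfor_04613 were the exceptions, higher in the head after the molt. Cfor_02801 stood at 164, 121, 168 and 112 CPM in post-molt heads, above its pre-molt level in each cross, and at 20.1, 30.1, 24.7 and 22.2 CPM in the bodies (log2 difference -2.66 ± 0.17, edgeR adjusted p = 0.00037). Cfor_04613 stood at 254 ± 19.6 CPM in heads and 83.3 ± 9.98 CPM in bodies (log2 -1.74 ± 0.14, edgeR adjusted p = 0.00054). BGI_novel_G001290 and BGI_novel_G001769 did not pass the test, with log2 differences of -0.88 ± 0.30 and -0.70 ± 0.74.

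The body-up genes split after the molt. BGI_novel_G000924 was the clearest of those with more in the body, at 114, 154, 166 and 159 CPM in bodies and 11.8, 39.7, 19.5 and 17.5 CPM in heads (log2 2.75 ± 0.26, edgeR adjusted p = 0.0011). BGI_novel_G002926 held 1347 ± 261 CPM in bodies and 601 ± 126 CPM in heads (log2 1.04 ± 0.09, edgeR adjusted p = 0.00074). Cfor_11354 was higher in the body by 4.18 ± 0.45 (edgeR adjusted p = 0.0017). BGI_novel_G000925, Cfor_02115, Cfor_02175, Cfor_07268 and Cfor_07269 were higher in the body by 0.39 to 1.96 (log2), with edgeR adjusted p between 0.011 and 0.037. These 5 did not pass in every alternative: the count of 8 was 3 without Hybrid F, 4 without Hybrid G and 5 in a fit to all 24 profiles.

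Cfor_10175 led those with more in the head, at 93.1, 149.7, 132 and 154 CPM in heads and 0.432 to 1.07 CPM in bodies (log2 -7.81 ± 0.42, edgeR adjusted p = 0.00022). Cfor_00825 (-3.03 ± 0.26), Cfor_04798 (-1.64 ± 0.14), Cfor_04584 (-1.63 ± 0.19) and Cfor_08423 (-1.44 ± 0.09) were also higher in the head, with edgeR adjusted p of 0.00076, 0.00070, 0.0020 and 0.00035. Cfor_05938, Cfor_02935, Cfor_06096 and Cfor_02719 were higher in the head by smaller differences (log2 -1.27 to -0.49, edgeR adjusted p between 0.0021 and 0.016). The call of Cfor_06096 was lost in the fit to all 24 profiles and that of Cfor_02719 without Hybrid F or Hybrid G. Cfor_06401, Cfor_09153 and Cfor_09357 did not pass the test, with log2 differences of 0.84 ± 0.31, -2.87 ± 1.08 and -0.04 ± 0.14.

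**Figure D4:**
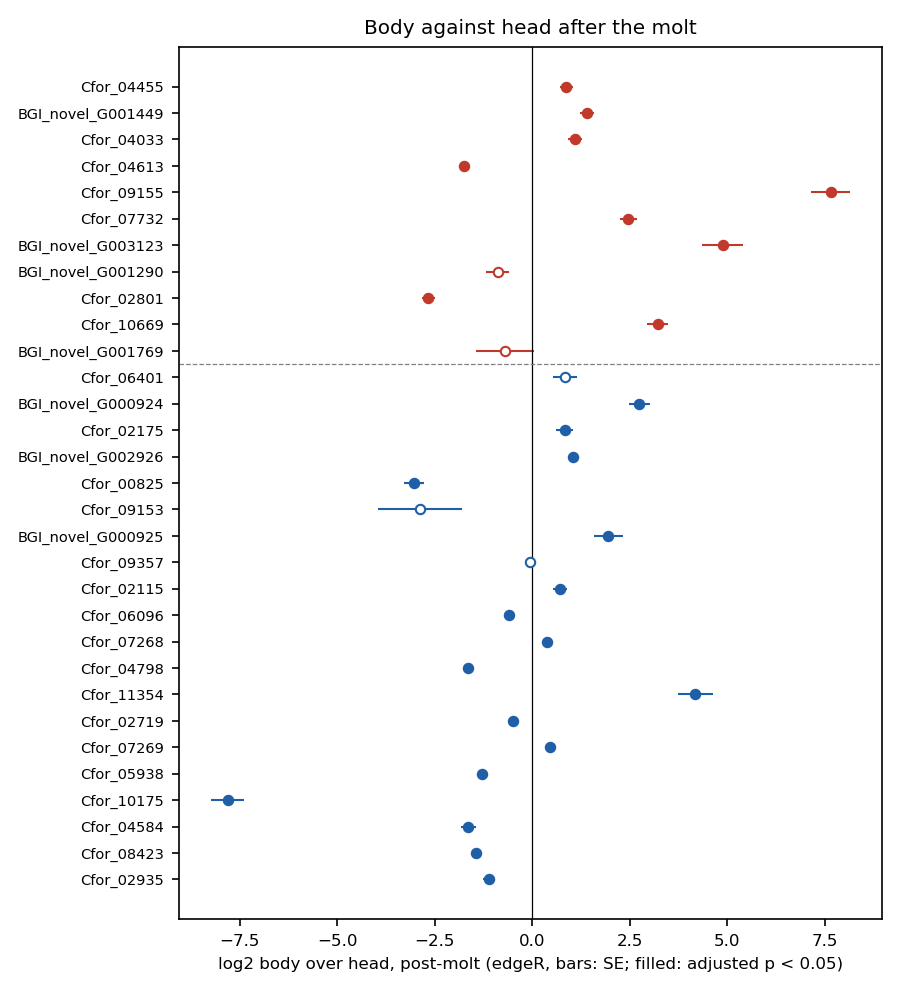
Log2 difference of body minus head after the molt for the 31 genes (edgeR estimate, bars are SE over 4 crosses, filled points have an adjusted p under 0.05), head-up genes in red above the dashed line and body-up genes in blue below it. Of the head-up genes 7 lie right of 0 with filled points and 2 left of it; the body-up genes lie on both sides, 8 and 9 of them with filled points.

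Post-molt levels are set beside the other stages as a description, with no test, since the rule used those stages. In 15 of 20 body-up genes the post-molt head lay nearer to the pre-molt than to the inter-molt head (mean log2 level), and in 14 of 20 the post-molt body lay nearer to the pre-molt body. Over all genes lower in the head by the rule the first share was 88.3%, and over all genes higher in the body the second was 51.5%. In the head-up genes these were 5 of 11 in the head and 4 of 11 in the body, against 50.9% of all genes higher in the head and 53.9% of all genes lower in the body by the rule. In 9 body-up genes the post-molt level was below inter-molt in all 4 heads and above it in all 4 bodies, where 1.88% of all genes were so, and in 0 of the head-up genes the reverse held, against 0.163% of all genes. By TMM scaling these were 7 and 1 genes, against 1.10% and 0.671%. In the head Cfor_02175 went from 1285 CPM between molts and 518 CPM before the molt to 49.5 ± 3.35 CPM after it, and Cfor_06401 and Cfor_06096 were likewise lowest after the molt in every head, at 5.86 ± 4.11 and 33.0 ± 15.1 CPM. Cfor_07268 stood higher after the molt than at both other stages in all heads and bodies, at 569.5 ± 93.6 and 815 ± 144 CPM.

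**Figure D5:**
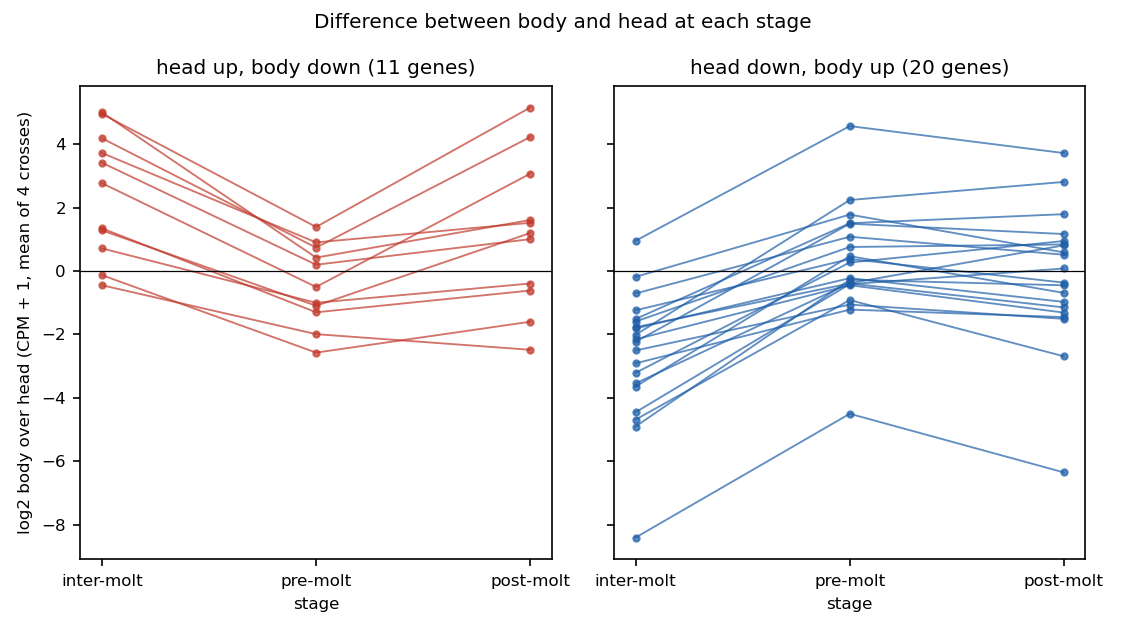
Log2 ratio of body over head (CPM + 1, mean of 4 crosses) of each head-up gene (left) and body-up gene (right) at the 3 stages, with 1 line per gene. The median of the head-up genes goes from 2.77 between molts to -0.50 before and 1.20 after the molt, and that of the body-up genes from -2.19 to 0.02 and -0.14.

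The head and body levels drew together before the molt in most of these genes. The absolute log2 ratio of body to head was smaller in pre-molt than in inter-molt workers in 8 of 11 head-up and 16 of 20 body-up genes, or 15 by TMM, against 54.3% of genes with a mean of at least 1 CPM. Its median went from 2.77 to 1.0 in the head-up and from 2.19 to 0.84 in the body-up genes, beside 0.35 and 0.34 over those genes. The choice of genes with opposite changes favours this, so it is a description.

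Differences between the species were tested with the 3 stages as blocks (edgeR quasi-likelihood test). These fits, and those between the hybrids, include the inter-molt and pre-molt profiles that the rule used. Their error is thus taken in part from the values that chose the genes. The shares of head-up and body-up genes called are therefore not a result about the groups. Over all genes 52.3% of 13080 differed between C. gestroi and C. formosanus in the head and 43.1% of 13256 in the body, and differences in how well the reads of either species match the gene models cannot be told apart from expression. In the head 24.3% were higher and 28.0% lower in C. gestroi, and in the body 20.3% and 22.8%. Of the head-up genes 3 of 11 differed in the head, all lower in C. gestroi, and 0 of 11 in the body, where 1 had an unadjusted p under 0.05 and DESeq2 called 1. BGI_novel_G003123 had a log2 difference of -2.55 ± 0.31 in C. gestroi heads (edgeR adjusted p = 0.00026). Cfor_09155 was counted 0, 14 and 0 times in the inter-molt, pre-molt and post-molt heads of C. gestroi and 8, 111 and 12 times in those of C. formosanus. Its fitted log2 difference was -3.11 ± 0.73 (edgeR adjusted p = 0.0077), or -6.29 without the pre-molt stage, so its size rests on that profile. Cfor_10669 was lower there by 0.64 ± 0.23 (edgeR adjusted p = 0.047), a call lost with RLE scaling, with no filter and without any 1 stage. The call of Cfor_09155 was lost without the post-molt stage.

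Of the body-up genes 6 of 20 differed between the species in the head and 5 in the body. BGI_novel_G000925 was lower in C. gestroi in both tissues, with log2 differences of -2.29 ± 0.41 in the head and -3.15 ± 0.54 in the body (edgeR adjusted p = 0.0021 and 0.0027). Cfor_02115 was also lower in both, by -0.87 ± 0.13 and -1.65 ± 0.30 (edgeR adjusted p = 0.00079 and 0.0033). Cfor_07268 and Cfor_07269, the neighbouring IDs, differed in opposite directions in the head, at -0.53 ± 0.14 and 0.74 ± 0.14 (edgeR adjusted p = 0.013 and 0.0032), and the first call was lost without the inter-molt or the post-molt stage. Reads may have been divided between these 2 IDs, and their opposite differences cannot be told apart from an unequal division in the species. Cfor_09357 (1.74 ± 0.34) and Cfor_00825 (1.37 ± 0.42) were higher in C. gestroi bodies and Cfor_04798 (-1.01 ± 0.17) lower (edgeR adjusted p = 0.0048, 0.030 and 0.0025). Cfor_06096 was lower and Cfor_09153 higher in C. gestroi heads, with log2 differences of -1.02 ± 0.24 and 1.22 ± 0.33 (edgeR adjusted p = 0.0080 and 0.016). Calls lost without the post-molt stage were those of Cfor_06096 and Cfor_09153 in the head and of Cfor_02115 and Cfor_00825 in the body. Without the pre-molt stage those of Cfor_09153 in the head and Cfor_00825 in the body were lost, and without the inter-molt stage that of Cfor_09357 in the body. Between Hybrid G and Hybrid F edgeR called 0 of the 31 genes in heads and 0 in bodies, with 1 at an unadjusted p under 0.05 in each tissue and 0 by DESeq2, where 0.145% of all genes were called in the head (0.0917% higher and 0.0535% lower in Hybrid G) and 0.143% in the body (0.0905% and 0.0528%).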

How the data were processed

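The deposited table holds unscaled expected counts per gene (estimated counts, 31.5% of the values above 0 not whole) and gene lengths, per the file headers. The submitters' processing notes name Bowtie2, RSEM and DESeq2, with neither versions nor roles. Genome build and annotation: not given in the sources used here. Library preparation used an mRNA kit, per the labels' protocols. NA (8.22% of cells) was read as 0. The columns of each of the 24 groups were identical and were used as 1 profile. Profile totals ran from 9861833 to 38338701, and 0 columns were without a sample. The members, lists and tests were chosen with earlier results of these data known.

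CPM was computed from column totals, and R as given in the report, with 1 CPM added. Levels are CPM, with SD over 4 crosses. For the tests, counts were rounded, filtered with filterByExpr and scaled by TMM. The fits used R 4.3.3 and edgeR 4.0.16 (glmQLFit, robust), with crosses or stages as blocks, and called genes at a Benjamini-Hochberg adjusted p under 0.05. Their p-values speak of how well a difference repeats across crosses or stages, not of the spread between workers. Each SE is the absolute log2 difference over the root of the quasi-likelihood F. The tests were checked on simulated counts, on which the post-molt test missed differences as small as the fold of the rule. Far fewer genes were changed there than were called in the data, which makes the adjusted p stricter. In the data smaller differences were called, such as the log2 0.39 of Cfor_07268. The species and hybrid tests were checked for larger differences only. A gene that was not called may still differ. Named genes are, per direction, the 10 with the largest smaller change, the 3 most abundant, those nearest the threshold, the 4 with the smallest post-molt p and consecutive IDs. The remaining members are named to account for all. The 11 gene lists, set by name keywords, were not used here because the IDs carry no names. Alternatives were RLE scaling, other pseudocounts, filters and folds, DESeq2 1.42.0, a fit to all 24 profiles, and each cross or stage left out.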

Additional observations from a re-analysis of the deposited data

Results flagged for a closer look

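The change before the molt was compared over the 4 crosses for each of the 31 genes in each tissue. In 4 of these 62 sets of 4 values 1 cross lay apart from the others by Dixon's criterion. It flags about 1 set in 20 by chance where the values were not chosen, which is near the share here. The rule used these values and asked for 1 sign in all crosses, so that rate need not hold. The flagged sets are given as a description. BGI_novel_G001769 had a log2 change of 2.12 in the Hybrid G head, against 0.08 to 0.26 in the other heads. Cfor_02719 had 0.21 in the C. formosanus body, against 1.0 to 1.11. Cfor_02935 had -0.39 in the Hybrid F head, against -0.71 to -0.69, and Cfor_04798 had -1.11 there, against -0.79 to -0.77.

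In 9 body-up genes the post-molt level lay below the inter-molt level in every head and above it in every body, against 1.88% of all genes. By TMM scaling these were 7 genes, against 1.10%. The difference between the tissues was not tested. It shares the inter-molt profiles with the rule, which favours such genes, so the count is a description. Mean log2 changes from inter-molt to post-molt in head and body were -1.69 and 3.14 for BGI_novel_G000924, -1.43 and 1.88 for BGI_novel_G000925, and -1.18 and 2.22 for BGI_novel_G002926. They were -1.13 and 1.30 for Cfor_02115, -0.60 and 0.86 for Cfor_04798, and -1.60 and 2.86 for Cfor_06096. For Cfor_06401, Cfor_09357 and Cfor_11354 they were -2.99 and 1.36, -2.79 and 1.74, and -0.54 and 2.23. With TMM scaling Cfor_04798 and Cfor_11354 no longer had 1 sign in every cross of both tissues.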

How the results depend on the processing

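All 31 genes kept opposite mean changes in head and body under TMM and RLE scaling. This had to hold, since these scalings moved the mean changes by less than the fold of the rule. In all 13 other settings 2 head-up and 7 body-up genes met the rule. Adding 0.25 CPM, asking for a mean of at least 1 CPM and leaving out genes with NA each kept all 31 genes, so these settings did not part them. The cause of the shifts below was not tested, with some exceptions set by arithmetic. A higher fold asks more of a gene and fewer crosses ask less. A smaller added value takes every ratio further from 1 and a larger one brings it nearer. The number of head-up genes (11) was 23 with 0.25 CPM added, 6 with 5 CPM added, 4 at a fold of 2, and 17 to 61 when 1 cross was left out. The number of body-up genes (20) was 37 with TMM scaling, 31 with RLE scaling, 9 at a fold of 2, and 17 to 48 when 1 cross was left out. With 5 CPM added 17 of the 20 met the rule, and Cfor_09153, Cfor_10175 and Cfor_11354 did not. Settings chosen after seeing the data gave 21 and 34 genes with the hybrids alone and 25 and 35 with changes taken relative to the median gene. Of the head-up genes 7 were chosen with TMM and 7 with RLE scaling, and of the body-up genes 12 and 11. After the molt, genes with a difference between body and head numbered 4811, or 2890 to 4406 without 1 cross, the lowest without Hybrid F. The count of body-up genes higher in the body (8) was 5 in the fit to all 24 profiles and 3 to 7 without 1 cross (3 without Hybrid F, 4 without Hybrid G); those higher in the head (9) were 8 to 10, and the head-up counts of 7 and 2 stayed so without any 1 cross and were 6 and 2 with all 24 profiles. A pair of post-molt estimates that missed the threshold changed sign: BGI_novel_G001769 (-1.28 to 0.04 without 1 cross, 0.04 without C. formosanus) and Cfor_09357 (-0.16 to 0.12, 0.12 without Hybrid G). Between the species DESeq2 called 1 head-up gene in the body (0 by edgeR), and 6 head-up and 10 body-up genes in the head (3 and 6 by edgeR). Without 1 stage these counts were 0 to 1 and 3 to 5 in the body and 2 to 3 and 3 to 8 in the head, the lowest body-up counts without the post-molt stage. Between the hybrids they stayed at 0. No paired analysis was possible because the columns of a group hold identical values, so the replicate numbers carry no separate samples.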
